A study of Homo sapiens with 6 samples.

Results

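The HOX genes encode homeodomain transcription factors that give cells their position along the body axis, and in humans they stand in 4 clusters, HOXA on chromosome 7, HOXB on 17, HOXC on 12 and HOXD on 2. Within a cluster the genes are numbered by paralog group, and low-numbered genes are classically active earlier and nearer the head than high-numbered ones. Polycomb complexes keep silent HOX genes marked by trimethylation of lysine 27 on histone H3, and KDM6A (UTX) is a demethylase that removes that mark. Chromatin accessibility of 38 protein-coding HOX genes was followed here, with 50 kb on either side of each cluster, in peak lists of ATAC-seq, an assay that uses the Tn5 transposase to tag accessible DNA. The cells were ARP1, a human multiple myeloma line, so malignant plasma cells, with 3 libraries labelled KDM6A knockout and 3 labelled wild type. All libraries came from that line without any named treatment, and the labels do not say which clones or cultures the replicates came from or how the knockout was made. The names of the deposited lists carry a shared code per genotype whose meaning is not given, so each p-value reflects only how these 6 libraries vary, and that variation may be technical. The knockout lists held 33056 to 37315 peaks each and the wild-type lists 54444 to 56049, and none gives read counts, so read depth is unknown. The start of KDM6A had a peak in all 6 lists, with a fold over background of 11.4, 15.1 and 12.6 in the knockout and 8.76, 13.6 and 10.7 in the wild type, and a peak there does not check the genotype.

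Peaks that overlapped between lists by at least 1 bp were merged. Of the 75701 merged regions of the genome, 33 lay in the 4 windows, which span 920.584 kb: 7 around HOXA (chr7:27050354-27250091), 15 around HOXB (chr17:48478526-48778750), 3 around HOXC (chr12:53888831-54106030) and 8 around HOXD (chr2:176037487-176240907), in GRCh38 coordinates. The HOX genes matched the RefSeq table of GRCh38.p14 by symbol, and 20 of the 38 had at least 1 start listed there. A gene start was called open where the library's list had a peak within 1 kb of a listed start, or, for the 18 genes without a listed start, within 1 kb of either gene end. These records give no exons, so positions are described against gene ends and starts.

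The sequences before some HOX starts are printed as examples of starts with and without a peak within 1 kb. They are too few to show a difference in bases between such starts. Each line gives the 250 bases before a RefSeq start, 5′ to 3′ on the gene's strand, and capitals mark matches to the TATA box (letters TATAAA), the CCAAT box (letters CCAAT), the GC box (letters GGGCGG), a homeodomain core (letters TAATTA) or a PBX-HOX composite (letters TGATTGAT), on either strand. The first 3 belong to starts with a peak within 1 kb in all 6 lists. HOXC4 stands for the start it shares with HOXC5 and with the lower end of the HOXC6 record, and its peaks do not reach the printed bases. HAGLR, a noncoding gene of the HOXD cluster, is shown because its start lies under the HOXD region with the highest mean fold. HOXA10 and HOXD13 are high-numbered genes without a peak within 1 kb of a listed start in any list.
HOXD4, chr2:176151300-176151549, plus strand: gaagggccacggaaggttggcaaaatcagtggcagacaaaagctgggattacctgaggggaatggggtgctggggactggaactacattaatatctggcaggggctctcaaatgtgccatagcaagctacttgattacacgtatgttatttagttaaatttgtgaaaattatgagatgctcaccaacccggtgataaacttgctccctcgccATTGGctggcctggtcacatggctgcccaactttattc
HOXA3, chr7:27150951-27151200, minus strand: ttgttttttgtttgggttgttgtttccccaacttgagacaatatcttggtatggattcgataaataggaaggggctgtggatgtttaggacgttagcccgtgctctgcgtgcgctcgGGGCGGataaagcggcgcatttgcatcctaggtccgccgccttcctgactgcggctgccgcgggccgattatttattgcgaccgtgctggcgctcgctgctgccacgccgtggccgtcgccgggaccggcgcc
HOXC4, chr12:54016638-54016887, plus strand: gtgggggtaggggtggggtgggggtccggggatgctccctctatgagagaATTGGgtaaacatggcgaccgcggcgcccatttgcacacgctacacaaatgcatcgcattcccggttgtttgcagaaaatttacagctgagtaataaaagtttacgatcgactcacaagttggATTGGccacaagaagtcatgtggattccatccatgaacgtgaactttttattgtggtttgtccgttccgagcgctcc
HAGLR, chr2:176178130-176178379, minus strand: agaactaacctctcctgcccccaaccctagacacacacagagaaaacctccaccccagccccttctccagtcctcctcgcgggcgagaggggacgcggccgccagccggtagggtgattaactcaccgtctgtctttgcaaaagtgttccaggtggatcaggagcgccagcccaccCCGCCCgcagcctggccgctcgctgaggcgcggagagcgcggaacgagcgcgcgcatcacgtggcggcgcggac
HOXA10, chr7:27179862-27180111, minus strand: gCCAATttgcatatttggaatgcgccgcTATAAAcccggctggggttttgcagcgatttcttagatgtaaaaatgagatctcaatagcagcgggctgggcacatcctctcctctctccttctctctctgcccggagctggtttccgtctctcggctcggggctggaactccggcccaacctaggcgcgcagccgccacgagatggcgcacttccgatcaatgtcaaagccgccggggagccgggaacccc
HOXD13, chr2:176092471-176092720, plus strand: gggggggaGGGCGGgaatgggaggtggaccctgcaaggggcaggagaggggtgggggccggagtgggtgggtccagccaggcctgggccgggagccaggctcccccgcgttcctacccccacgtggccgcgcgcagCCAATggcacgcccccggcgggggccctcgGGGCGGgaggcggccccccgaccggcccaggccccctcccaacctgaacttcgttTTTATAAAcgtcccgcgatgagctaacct

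Motif content of the listed windows, which reach 250 bases before and 50 bases after a start, was described over 26 distinct HOX starts and over all 35116 windows of the table. A CCAAT box was found at 17 of the 26 HOX starts (65.4%) against 34.6% of all windows. The GC box was found at 13 (50%, against 45.0%), the TATA box at 5 (19.2%, against 11.5%), and the homeodomain core and the PBX-HOX composite at 2 each (7.69%, against 4.84% and 0.484%). Matches on the 2 strands can overlap each other, as in the TATA run before HOXD13. Of the 26 starts 3 had a peak within 1 kb in all 6 lists and 23 had none in any list. The HOXD4 window held 4 CpG dinucleotides, the HOXC4 window 15 and the HOXA3 window 29, beside a median of 23 over the 23 starts without a peak and of 14 over all windows. The CCAAT box stood at 2 of the 3 starts with a peak and at 15 of the 23 without. The TATA box stood at 0 of the 3 and at 5 of the 23, and the printed HOXA10 and HOXD13 starts are among those 5.

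Most HOX genes had no peak at a start in any list, which does not show that these starts were closed. Peaks were present in all 6 lists at 8 of 38 genes (21.1%), against 55.3% of 20039 protein-coding genes. These 8 were HOXA3, HOXB2, HOXB7, HOXB9, HOXC4, HOXC5, HOXC6 and HOXD4, of which the 3 HOXC genes share 1 region and count as a single site. HOXB4, HOXB5 and HOXB8 were called in some lists of each genotype, and 27 genes (71.1%) had no peak in any list, against 36.0% of all protein-coding genes. With windows of 500 bp the count open in all 6 lists was 3 (HOXA3, HOXB9 and HOXD4). With the start taken from the strand of the cluster it was 7 (18.4%), without HOXB2. No HOX start was called in all lists of 1 genotype and in none of the other. Among all genes this was so for 1.37% of the starts open in all 3 wild-type lists and 0.0358% of those open in all 3 knockout lists.

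By paralog group, 4 of the 11 genes of groups 1 to 4 were open in all 6 lists. The same held for 3 of the 11 of groups 5 to 8 and for 1 of the 16 of groups 9 to 13, HOXB9. The other 15 genes of groups 9 to 13 had no peak at a start in any list. With windows at both gene ends HOXD13 was open in all 6 lists too, HOXA9 in the wild-type lists alone and HOXD10 in 5. These counts go by gene number, not by position. The open HOXA3 start (chr7:27150950) lies between HOXA6 and HOXA7. The shared HOXC region counts under groups 1 to 4 and again under 5 to 8. With the start taken from the strand of the cluster, groups 1 to 4 had 3 of 11, without HOXB2. HOXA2, HOXA4, HOXA5 and HOXA6 lay within 52.81 kb without a region, and HOXA9, HOXA10, HOXA11 and HOXA13 within 48.44 kb. In the HOXC window 116.91 kb from its lower edge, with HOXC13, HOXC12, HOXC11, HOXC10 and HOXC9, held none. HOXB13 stood alone in 100 kb without a region that ran to the window's upper edge. The map of peaks along the clusters shows these empty stretches in every library.

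**Figure D1:**
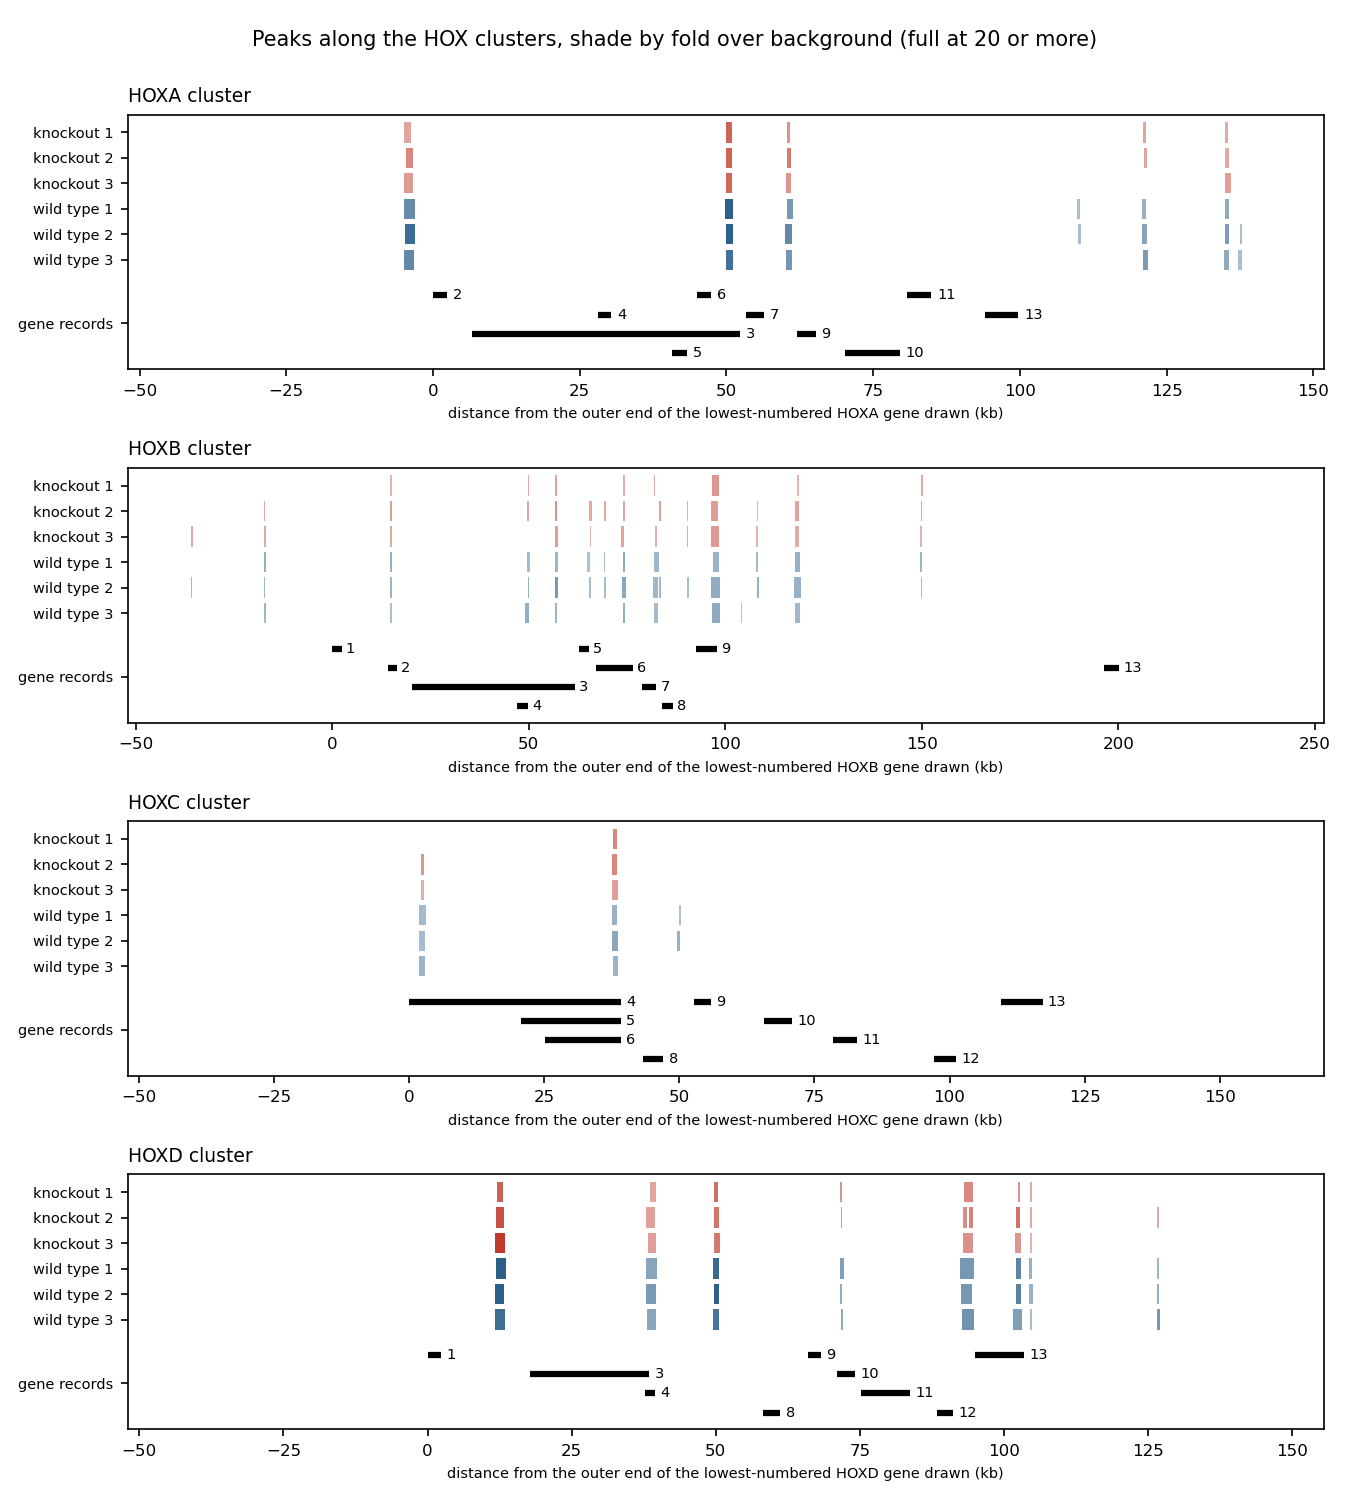
Peaks of each library along the 4 HOX clusters and 50 kb on either side. The x axis is the distance in kb from the outer end of the lowest-numbered gene drawn, coloured bars are peaks (red knockout, blue wild type, darker with a higher fold up to 20), and black bars are gene records with their number. HOXB held 15 regions and HOXC 3.

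The clusters differed in how their regions lay. Between the outermost genes the density was 6.49 regions per 100 kb in HOXB and 5.80 in HOXD, against 2.01 in HOXA and 2.56 in HOXC. HOXB regions were weak: the median of the wild-type mean fold was 5.94 in HOXB, 5.84 in HOXC, 9.82 in HOXD and 11.5 in HOXA (regions with calls in every wild-type list). The fold is the authors' own value, the signal of a peak over the caller's background, and it is given here for the strongest peak over a region in each list. Over all 23 such HOX regions the median was 7.69, beside 8.33 over all such regions of the genome.

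At HOXA3, a low-numbered gene of the HOXA cluster, 1 of 7 listed starts, at chr7:27150950, had a peak in every list. Its fold was 14.1, 14.4 and 13.8 in knockout libraries 1, 2 and 3 and 21.8, 23.3 and 17.2 in wild-type libraries 1, 2 and 3. All knockout values lay below all wild-type values (14.1 ± 0.339 against 20.8 ± 3.20, SD, n = 3). Over all 23589 regions called in all 6 lists the median fold came to 9.19 ± 0.584 for knockout libraries and to 12.0 ± 1.03 for wild-type libraries (SD of library medians, n = 3), so the HOXA3 region was above the median of each genotype. The region (chr7:27150130-27151462) holds the sequence printed for HOXA3, and its summits spread over 309 bp.

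At HOXD4, a hindbrain-patterning gene, the peak had a fold of 5.72, 5.90 and 6.17 in the knockout libraries and 8.33, 10.2 and 8.17 in the wild-type libraries. The groups did not overlap (5.93 ± 0.229 against 8.90 ± 1.13, SD, n = 3), and all 6 values were below the genome's medians. The region (chr2:176151160-176153039) covers the sequence printed for HOXD4 and overlaps the records of HOXD4 and HOXD3. The listed start of HOXD3, at chr2:176157307, had no peak within 1 kb in any list.

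HOXC4, HOXC5 and HOXC6 share a region at chr12:54017290-54018395, which begins 402 bp past their common start and does not reach the sequence printed for HOXC4. Its fold was 9.33, 9.51 and 6.45 in the knockout libraries and 6.19, 8.02 and 5.87 in the wild-type libraries. The mean was higher in the knockout (8.43 ± 1.71 against 6.69 ± 1.16, SD, n = 3) and the groups overlapped. It was 1 of 2 HOX regions called in all 6 lists with a higher mean in the knockout, the other being that of HOXB9.

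The HOXB genes had low folds in both genotypes. HOXB9, the highest-numbered HOX gene with an open start, had 7.22, 6.56 and 7.02 in the knockout and 5.98, 7.05 and 7.33 in the wild type, which overlap. HOXB7 had 4.82, 5.90 and 3.93 in the knockout and 5.34, 5.35 and 4.82 in the wild type. Its region was long, 1996 bp, with summits 1389 bp apart between lists, so the lists did not mark the same point. HOXB2 had 3.61, 6.56 and 5.33 in the knockout and 6.19, 5.59 and 3.98 in the wild type. That peak lies inside the gene record and within 1 kb of its lower end. On the minus strand of the cluster, taken from HOXB1, that is the 3′ end.

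The partly called HOXB genes switched between lists of the same genotype. HOXB4 had a fold of 5.12 and 5.25 in knockout libraries 1 and 2, no peak in knockout library 3, and 4.91, 6.32 and 6.92 in the wild type. HOXB5 had 4.92 and 3.37 in knockout libraries 2 and 3 and 3.42 and 4.38 in wild-type libraries 1 and 2. HOXB8 had 5.90 in knockout library 2 and 5.34 and 4.62 in wild-type libraries 1 and 2. These peaks belong to the HOXB7 region, and the first 2 are the peaks given for HOXB7 in the same libraries. The lowest fold listed anywhere in a library was 3.09 to 3.31 in the knockout and 2.72 to 2.92 in the wild type, so these peaks lay not far above what the lists contain at all. A missing peak there does not show that the site was closed.

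**Figure D2:**
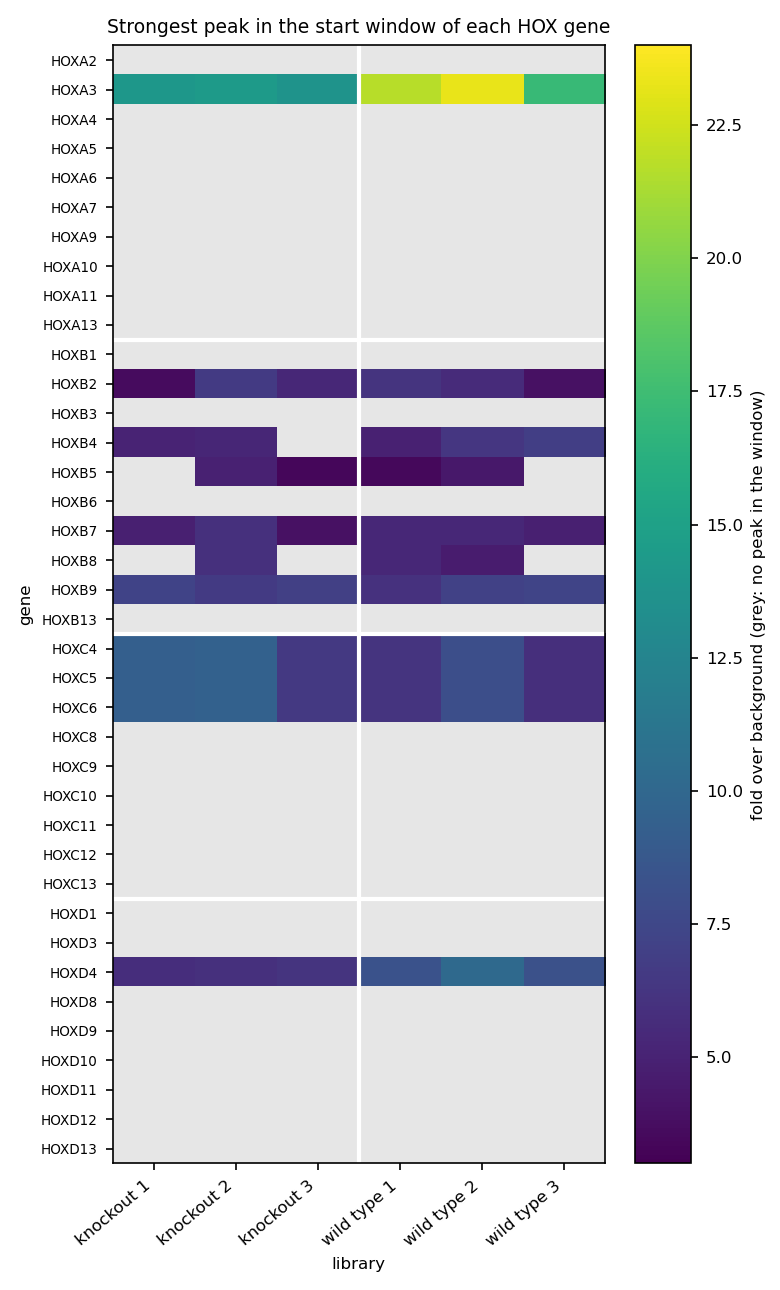
Fold over background of the strongest peak in the start window of each of 38 HOX genes (rows) in each library (columns), with grey where the list has no peak. HOXA3 has the brightest row, 13.8 to 23.3, and 27 rows are grey throughout.

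Several HOX regions called in all 6 lists were away from the listed HOX starts, and some of them were strong. The region of the HOXD cluster with the highest mean fold in each genotype (chr2:176177252-176179222) covers a start of HAGLR, at chr2:176178129, and overlaps HAGLROS, both noncoding. Its fold was 14.4, 16.7 and 19.9 in the knockout and 22.4, 23.3 and 17.6 in the wild type, and the groups overlapped. HAGLR has 4 listed starts, and the other 3 had no peak within 1 kb in any list. A region over the LOC401021 record between HOXD8 and HOXD4 (chr2:176140239-176141422) had 12.9, 11.8 and 11.5 in the knockout and 18.4, 24.1 and 16.3 in the wild type, without overlap, and in wild-type library 2 it exceeded the HAGLR region. Regions inside HOXD13 (chr2:176087840-176089449) and between HOXD13 and HOXD12 (chr2:176096054-176098519) were called in all 6 lists while the listed starts of both genes were not within 1 kb of a peak. The first had 8.13, 12.1 and 7.58 in the knockout and 13.7, 14.6 and 9.22 in the wild type, and the second 9.33, 10.2 and 8.14 in the knockout and 10.5, 10.5 and 11.3 in the wild type. The HOXD13 record begins at chr2:176087487 on the plus strand, within 1 kb of the first region. With windows at both gene ends, as used for the 18 genes without a listed start, HOXD13 and HOXD3 would count as open in all 6 lists.

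Between HOXA7 and HOXA9 a region (chr7:27160351-27161677) had a peak in each of the 6 lists, and its fold was 7.83, 11.1 and 7.58 in the knockout and 10.5, 13.1 and 10.9 in wild-type libraries. With windows at both gene ends HOXA9 would count as open in the wild type alone, because that region's peaks ended at 27161563 to 27161677 in the wild-type lists and at 27161231 to 27161337 in the knockout lists, on either side of the window's edge. The HOXA9 start itself, at chr7:27165537, had no peak within 1 kb in any list.

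The 6 HOX-embedded microRNA genes of the miR-10, miR-196 and miR-615 families were looked up. The 5p strands of miR-196a, from HOXB and HOXC, and of miR-196b, from HOXA, are printed because they share a seed (bases 2 to 8, in capitals) across 3 clusters.
hsa-miR-196a-5p: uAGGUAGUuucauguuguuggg
hsa-miR-196b-5p: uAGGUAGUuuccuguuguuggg
MIR10B, which lies before HOXD4, was within 1 kb of a peak in 5 lists, all but knockout library 2, and in each of the 5 that peak was the HOXD4 peak. MIR10A, beside HOXB4, was within 1 kb of a peak in wild-type library 1 alone (fold 4.91). MIR196A1, beyond HOXB9, lay under a peak of wild-type library 3 alone (fold 3.14). MIR196A2, MIR196B and MIR615 had no peak within 1 kb in any list. Of all 19 embedded noncoding genes listed, 3 (15.8%) had a start or end open in all 6 lists. The share of protein-coding genes with an open start was 55.3%, and no share over noncoding genes is given here. Another 3 were open in some lists (MIR10A, MIR10B and MIR196A1) and 13 in none. HOTAIR and HOTTIP, long noncoding RNAs of HOXC and HOXA, were among the 13.

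No HOX region was called in 1 genotype alone throughout. Of the 23 HOX regions that all 3 wild-type lists held, 0 were absent from all knockout lists, against 17.3% of such regions in the genome. A count of 0 of 23 allows a share of up to 14.8% (Clopper-Pearson, 95%), an interval that covers counting error and treats regions as independent, which neighbouring regions need not be. Of the 18 called in all 3 knockout lists, 0 were absent from all wild-type lists, against 0.39%, with an upper bound of 18.5%. Regions present in all 6 lists made up 17 of the 23 (73.9%, against 59.3%) and 17 of all 33 (51.5%, against 31.2%). With every list held to its 33055 strongest peaks the genome's shares became 7.24% and 3.82%, and the HOX counts stayed at 0. Leaving out knockout library 2 or wild-type library 1 gave 1 HOX region of the wild type alone, and leaving out wild-type library 3 gave 2. These are 4.35% of 23, 4.17% of 24 and 6.90% of 29 HOX regions, where the genome's shares under the same settings were 22.4%, 21.3% and 20.3%.

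Wild-type lists alone, though not all of them, held 4 HOX regions. Beyond HOXA13 these were chr7:27210115-27210730, with a fold of 4.06 and 4.38 in wild-type libraries 1 and 2, and chr7:27237558-27238176, with 4.13 and 4.19 in wild-type libraries 2 and 3. Before HOXC8 chr12:54005745-54006355 had 3.63 and 6.32 in wild-type libraries 1 and 2. The fourth was the MIR196A1 region. With calls in at least 2 of 3 lists as the rule, the first 3 make 3 wild-type regions of 30, where the genome's share was 27.2%.

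At the 17 HOX regions called in all 6 lists, the fold was lower in every knockout library than in every wild-type library at 7 (41.2%, against 43.9% of all such regions) and higher at 0 (against 2.81%). The 7 included the regions of HOXA3 and HOXD4, that over LOC401021, that between HOXD13 and HOXD12, and 1 inside the HOXB6 record. The knockout mean was lower at 15 of 17, and the median ratio of knockout to wild-type mean was 0.797, beside 0.788 over the genome. By cluster the median ratio was 0.661 in HOXA over 4 regions, 0.931 in HOXB over 6, 0.773 in HOXD over 6, and 1.26 at the single HOXC region. The covered length of these regions was shorter in every knockout list at 8 of 17 (against 52.3%). These shares lie near those of the genome as a whole, and folds of separately called lists carry no test here.

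Ranks within a library set each region against the other regions of the same list. As a percentile among the 23589 regions called in all 6 lists, the HOXC4 region stood at 53.0, 47.3 and 28.6 in the knockout and at 12.7, 18.7 and 9.80 in the wild type. HOXB9 stood at 33.8, 20.6 and 35.2 in the knockout and at 11.3, 12.7 and 19.2 in the wild type. Both ranked higher in every knockout library, as 17.8% of the genome's regions did, so 2 of 17 is no more than the background. HOXD4 stood at 16.9, 14.0 and 25.3 in the knockout and at 29.1, 33.2 and 25.4 in the wild type, and it was 1 of 2 HOX regions ranked lower in every knockout library (against 17.3%). HOXA3 overlapped between genotypes, at 78.2, 73.3 and 78.1 in the knockout and 87.9, 83.2 and 76.1 in the wild type.

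**Figure D3:**
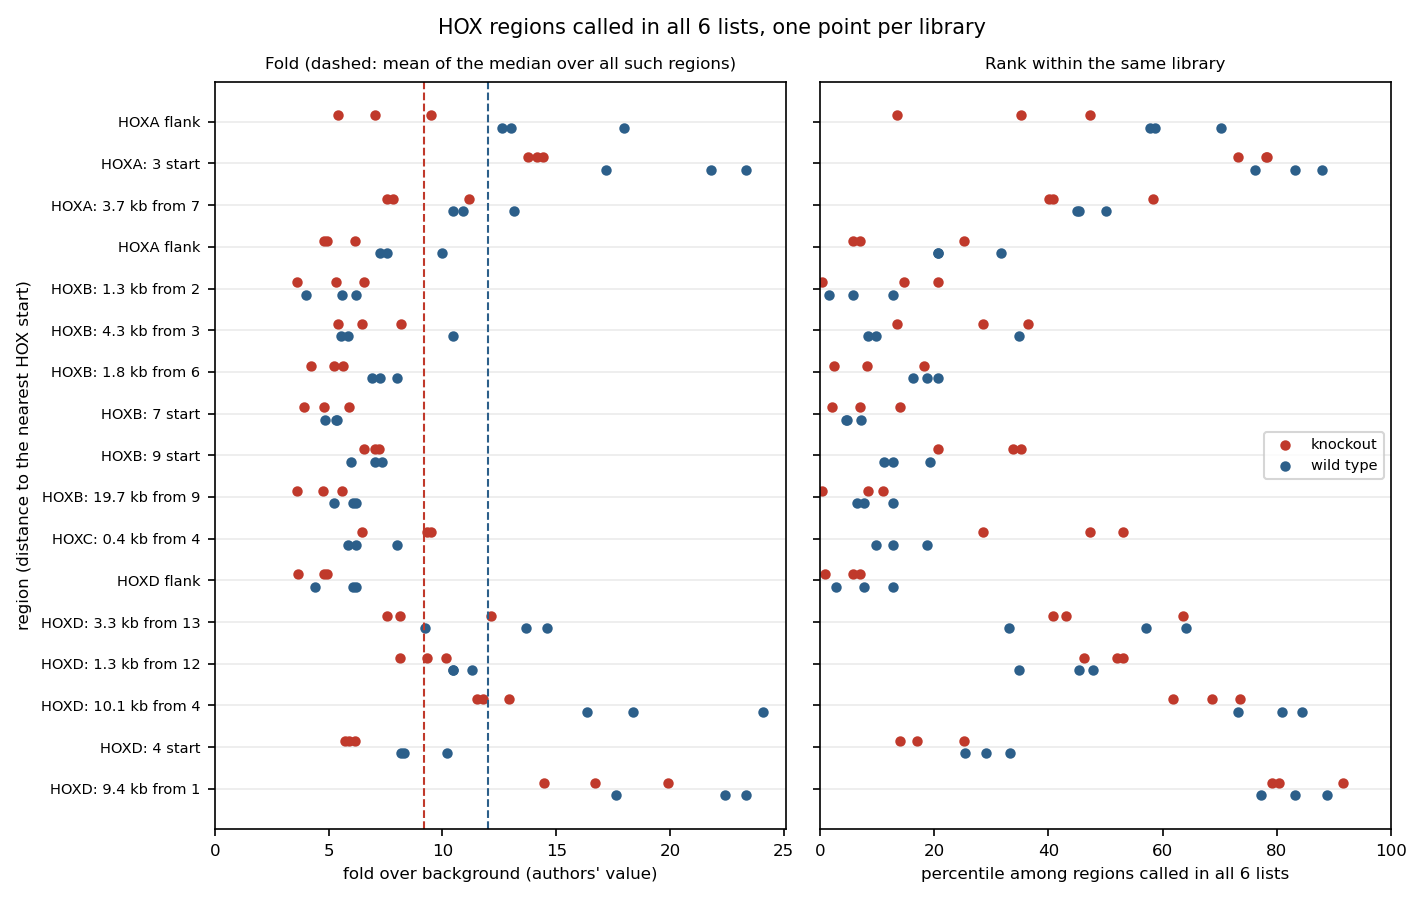
The 17 HOX regions called in all 6 lists, with 1 point per library (red knockout, blue wild type): fold over background (left, dashed lines at the mean of the library medians over the genome, 9.19 and 12.0) and percentile within the same library (right). Knockout folds lie below wild-type folds in 7 rows, while in the right panel the genotypes separate in 4.

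Counted per library, the HOX windows held 21, 29 and 24 peaks in the knockout and 29, 33 and 25 in the wild type. The groups overlapped (24.7 ± 4.04 against 29.0 ± 4.0, SD, n = 3, two-sided exact permutation p = 0.3, adjusted 0.533 over 16 tests), and the smallest p that 3 against 3 can give is 0.1. The knockout mean was 85.1% of the wild-type mean, where for all peaks it was 64.5%. The difference of -4.33 HOX peaks became -2.33 without wild-type library 2, -2.5 without knockout library 1 and -6.5 without knockout library 2. As a share of all peaks of its list the HOX windows held more in every knockout library, 0.0635%, 0.0777% and 0.0666% against 0.0533%, 0.0606% and 0.0446% (exact permutation p = 0.1, adjusted 0.267, n = 3).

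The length covered by HOX peaks was 14.7, 20.5 and 21.5 kb in the knockout and 27.3, 28.5 and 25.8 kb in the wild type. All knockout libraries were below all wild-type libraries (18.9 ± 3.63 against 27.2 ± 1.32 kb, SD, n = 3, exact permutation p = 0.1, adjusted 0.267). The HOX mean in the knockout was 69.4% of that in the wild type, while whole lists covered 30.1, 31.3 and 36.7 Mb in the knockout and 54.7, 52.01 and 56.8 Mb in the wild type. Taken by cluster, covered length did not overlap between genotypes in HOXA, HOXC or HOXD and overlapped in HOXB, where it was 4.73, 8.32 and 8.20 kb against 9.27, 11.0 and 8.0 kb. HOXA peaks numbered 5, 5 and 4 in the knockout and 6, 7 and 6 in the wild type (exact permutation p = 0.1, adjusted 0.267, n = 3). Open HOX genes numbered 9, 11 and 9 in the knockout and 11, 11 and 9 in the wild type (exact permutation p = 1, n = 3). No test of the 16 passed an adjusted p of 0.05, which this design cannot reach.

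Peak number moved with list length. With 33055 peaks per list the HOX windows held 21, 29 and 21 peaks in the knockout and 22, 21 and 19 in the wild type, and in HOXB 8, 13 and 10 against 8, 6 and 5 (exact permutation p = 0.2, n = 3). Open HOX genes were then 9, 11 and 8 against 9, 7 and 7 (exact permutation p = 0.3, n = 3), so both differences took the opposite sign. The difference in covered length, knockout minus wild type, went from -8.32 to -3.77 kb, still without overlap. For HOXB it went from -2.33 to 0.70 kb. For HOXC it went from -1.06 to -0.17 kb, with 0.763, 1.32 and 1.78 kb against 0.828, 1.51 and 2.04 kb, which overlap (exact permutation p = 0.7, n = 3). With the full lists, knockout peaks were shorter over the genome too. Among regions called in all 6 lists the median ratio of knockout to wild-type length was 0.767, and 0.76 at the HOX regions. No genome value of covered length at equal list length is given here. HOXA peaks became 5, 5 and 4 against 5, 5 and 5 (exact permutation p = 1, n = 3). The difference in the share of all peaks fell from 0.0165 to 0.0091 percentage points (exact permutation p = 0.6, n = 3), and the groups overlapped. The part of list length in the HOX differences was not tested beyond this comparison.

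**Figure D4:**
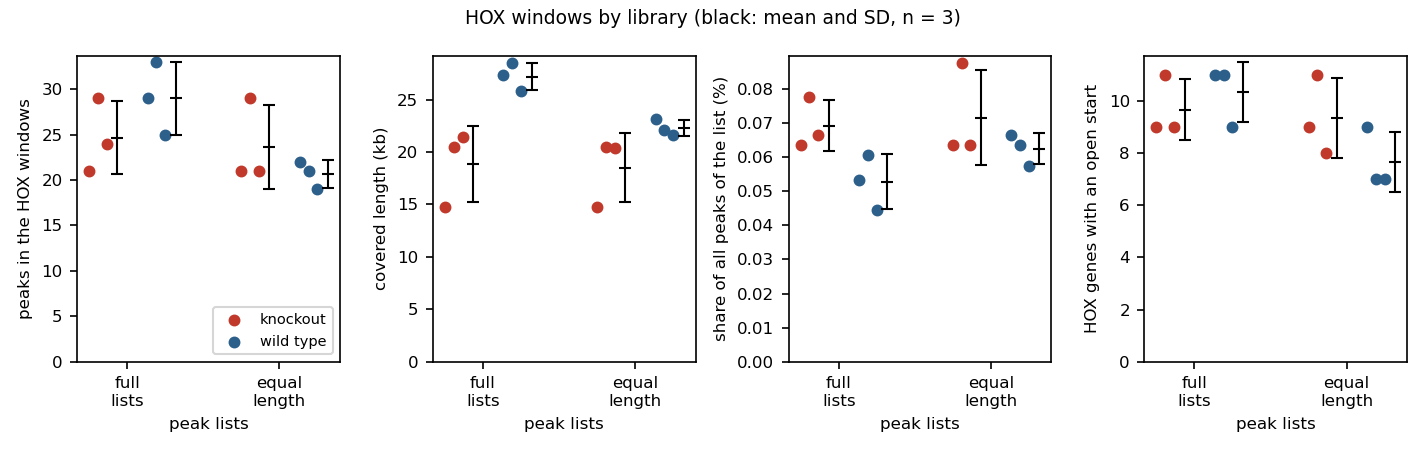
Peaks, covered length in kb, share of all peaks in percent, and number of HOX genes with an open start, for each library (red knockout, blue wild type) with the full lists and with lists of equal length. Black marks show the mean and SD of 3 libraries. Covered length is the measure in which the genotypes stand apart under both.

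Many genes that act on the HOX clusters were open in both genotypes. Of 27 activators, among them the methyltransferase KMT2A and its partner MEN1, 23 (85.2%) had a start open in all 6 lists, beside 55.3% of all protein-coding genes, and CDX1, CDX2, CDX4 and RARB had no peak. Of 31 repressors, the Polycomb genes and their partners, 29 (93.5%) were open in all 6 lists. MTF2 was open in all wild-type lists and in knockout libraries 1 and 3, and PCGF2 in some lists of each genotype. Among cofactors of HOX proteins, MEIS1, PKNOX1 and PKNOX2 had a start open in all 6 lists, and MEIS2 and MEIS3 in some. The 6 ParaHOX genes, relatives of the HOX genes outside the clusters that include CDX1, CDX2 and CDX4, had no peak. Of 13 neighbours, 9 were open in all 6 lists, while EVX1 and EVX2, homeobox genes next to HOXA and HOXD, and SKAP1 and SKAP2 were not open in any. No gene of these lists was called in all lists of 1 genotype and in none of the other.

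The labelled cell type was checked in the same way. Of 10 plasma cell markers 8 (80.0%, beside 55.3% of all protein-coding genes) were open in all 6 lists, among them SDC1, PRDM1, XBP1 and IRF4. JCHAIN had a peak in the 3 wild-type lists alone (fold 5.98, 6.32 and 6.92), and SLAMF7 in wild-type libraries 1 and 3. Of 5 B cell, 5 myeloid, 4 erythroid and 4 epithelial markers none was open in all 6 lists. The B cell genes PAX5 and BLK each had a peak in 5 lists, the 3 wild-type lists included, and KRT18, an epithelial marker, had a peak in wild-type library 3. Of 5 T cell markers CD3E was open in all 6 lists, and of 4 fibroblast markers COL1A1 was, with COL1A2 in 5 lists.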

How the data were processed

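Peak lists of 6 ATAC-seq libraries of ARP1 were used, grouped by genotype from the labels. Trimmomatic, FastQC, MultiQC, Bowtie2 and MACS2 2.1.2 with GRCh38 are named in the submitters' processing notes. Settings, any Tn5 shift and duplicate handling were not given in the sources used here. Peak calling was per library, since every sample came with a list. Per peak the deposited lists give a score, a fold (ratio over background), and p-value and q-value, each as −log10, all as the authors' caller wrote them, and the score is 10 times the −log10 q-value as a whole number. The 1 mitochondrial peak per list was left out.

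Peaks were merged at 1 bp of overlap and set against RefSeq GRCh38.p14 gene records and starts. The planned start window was used where a start is listed, and both gene ends elsewhere. A region or start counted for 1 genotype alone when all 3 of its lists, and no list of the other, held it. Counts, covered length, share of peaks and open genes per library were compared by two-sided exact permutation over 20 labellings, with Benjamini-Hochberg adjustment over 16 tests. Folds and ranks were described and not tested. Equal-length lists keep the 33055 peaks with the highest −log10 p-value. All 38 HOX genes are counted, and those with a start open in at least 1 list are named, with some of the others. Genes of the other lists are named where they were open in 1 genotype alone, and further names from those lists were chosen after their values were seen. All 139 list genes matched RefSeq symbols. The members and lists were chosen with earlier results of these data known. Of 39 protein-coding HOX genes 1 is not reported here. Alternatives covered peak strength, overlap, flank, start window, list length, the replicate block and leaving out each library. The code was tested on simulated peaks. Python 3.11.15, pandas 2.3.3, NumPy 2.4.6, SciPy 1.17.1 and matplotlib 3.10.9 were used.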

Additional observations from a re-analysis of the deposited data

How the results depend on the processing

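Across the 16 tested results and their alternatives, 190 of 207 values kept their direction and stayed short of the threshold, 11 changed direction or fell to 0, and 6 moved away from a difference of 0. The lowest p was 0.1, the smallest the design allows, so a p that stays above 0.05 shows nothing about stability. With lists of equal length the difference, knockout minus wild type, became 3.0 for HOX peaks (from -4.33), 1.67 for open HOX genes (from -0.67), 4.0 for HOXB peaks, 1.67 for open HOXB genes, 0.70 kb for HOXB covered length and 0 for HOXC peaks. With a flank of 10 kb it became 0 for HOXA and for HOXD peaks. With 1 library left out, the difference in all HOX peaks ranged from -6.5 to -2.33, the HOXB peak difference ranged from -2.5 (without wild-type library 3) to 0.5 (without knockout library 1, and also without wild-type library 2), and the HOXD peak difference from -1.5 (without knockout library 2) to 0 (without knockout library 3). The cause of these changes was not tested. Regions called in the wild type alone numbered 3 with at least 2 of 3 lists, 1 with a flank of 100 kb, and 0 to 2 when 1 library was left out (1 without knockout library 2, 1 without wild-type library 1 and 2 without wild-type library 3). The starts of 18 HOX genes rest on gene ends: with the start taken from the strand of the cluster, an alternative chosen after seeing the data, HOXB2 and HOXB8 had no open start. With windows of 500 bp 3 genes were open in all 6 lists, and with 2 kb 10 were. With windows at both gene ends of every gene 9 were, HOXD3 and HOXD13 among them, and HOXA3 was not.

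Replicate numbers gave no sign of pairing. Same-numbered libraries had correlations of -0.02, 0.02 and -0.18 between their deviations, and differently numbered libraries had -0.115 to 0.127. Such correlations cannot exclude a shared culture or day, which the labels do not mention. With the replicate block the difference in HOX peaks was -4.33 and in covered length -8.32 kb, with a smallest possible exact p of 0.25, and no call changed.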

Other observations

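Peak length at HOX regions was compared between genotypes in the same way as fold. At the 17 HOX regions called in all 6 lists the covered length was shorter in every knockout list than in every wild-type list at 8 (47.1%, against 52.3% of such regions in the genome) and longer at 0 (against 173 of 23589), so the HOX share was not above the genome's. At the HOXB7 region the peaks covered 362, 487 and 663 bp in knockout libraries 1, 2 and 3 and 1342, 1526 and 1009 bp in wild-type libraries 1, 2 and 3. The folds of HOXB7 overlapped and these lengths did not, but the lengths do not compare a single site. The peak of knockout library 2, at chr17:48611677-48612163, overlaps neither that of knockout library 1 nor that of knockout library 3. The length for wild-type library 2 adds up separate peaks of 1167 and 359 bp. At the HOXD4 region the lengths were 1133, 1516 and 1341 bp against 1880, 1736 and 1637 bp. At the HOXC4 region they overlapped, at 763, 763 and 1075 bp against 828, 1089 and 952 bp.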
